A study of Mus musculus with 8 samples.

Results

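Messenger RNAs of the splicing machinery were followed in IMCD cells, a mouse line named for the inner medulla of the kidney, after NaCl was added to the medium. The 88 genes were taken by symbol from the 15288 genes of the count table: SR proteins, hnRNPs, the CLK and SRPK kinases that phosphorylate SR proteins, protein genes of the small nuclear ribonucleoproteins (snRNPs), U2AF and SF3 factors, PRPF genes, and the RBFOX, ESRP and MBNL regulators. The symbol rule itself uses no measured value, but the gene set was proposed with earlier results of these data known. Controls were kept for 12 h in serum-free DMEM without added NaCl (4 libraries, replicates 1 to 4), and the treated cells for the same time in that medium with 100 mmol NaCl (4 libraries, replicates 5 to 8; the labels state no volume). All cells were of this line, grown beforehand with serum to confluence. The labels do not say whether the libraries of a group came from separate cultures, so p-values measure the spread between these libraries, which may be technical.

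Splicing removes introns in the spliceosome, which is built from snRNPs and many further proteins. SR proteins mostly promote the use of nearby exons, hnRNPs often oppose it, and CLK and SRPK kinases control where SR proteins sit and what they bind. Osmotic stress is known to move hnRNP A1 to the cytoplasm, and several SR protein and CLK genes are known to make transcripts with retained introns or early stop codons. The deposited counts are per gene, so they sum all transcripts of a gene and do not show splicing itself.

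Libraries held 35.29 to 47.57 M counts, and all 88 genes passed the expression filter. Values below are counts per M counts (CPM) on scaled library totals unless a count is named. The tonicity genes fixed as a check of the treatment label were all higher with NaCl (6 of 6). Of the cell type markers, epithelial Krt18 had 217 ± 25.9 CPM and Epcam 27.3 ± 3.18 CPM in control (SD, n = 4), and neither was called. Cdh1, the epithelial cadherin, had at most 30 counts in any library and rose from 0.195 to 0.535 CPM (log2 fold change 1.43, edgeR adjusted p = 0.0254). Lrp2, a proximal tubule marker, had 185 CPM in control and 162 CPM in NaCl libraries, and Cubn of the same list had 2.16 and 2.45 CPM; neither was called. Of the 12 collecting duct markers 11 were in the table and 8 were tested, of which 2 rose and 3 fell. Their sum was 100.3 to 107 CPM in control and 86.0 to 97.6 CPM in NaCl libraries. Hoxb7 was the highest of them and fell from 71.4 to 60.2 CPM, Gata3 fell from 8.10 to 5.97 CPM, and the urea transporter gene Slc14a2 rose from 2.31 to 5.06 CPM. No library counted more than 15 reads of the water channel gene Aqp2 or 28 of Aqp3. The fibroblast list (Col1a1, Dcn, Pdgfrb) summed to 2369 to 2714 CPM in control and 2029 to 2382 CPM in NaCl libraries, nearly all of it Col1a1, which fell. Pdgfrb of that list rose from 37.5 to 61.1 CPM (log2 fold change 0.70, edgeR adjusted p = 1.08e-06), and Dcn was not called. No entry for the leukocyte marker Adgre1 was found among the counted genes. The rest of the leukocyte list (Ptprc and Cd68) summed to 5.95 to 7.19 CPM in control and 14.9 to 15.3 CPM in NaCl libraries. These genes differed in direction, since Ptprc rose from 4.05 to 13.5 CPM, whereas Cd68 had 2.41 and 1.69 CPM and was not called (edgeR adjusted p = 0.0573). What part these marker differences have in the results below was not tested.

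The splicing genes changed about as often as genes in general, and by little. With edgeR's quasi-likelihood test at an adjusted p under 0.05, 30 of 88 were called, where 34.1% of the 14024 genes tested were called. Of the 30, 15 rose and 15 fell, beside a background of 16.9% higher and 17.2% lower. At an adjusted p under 0.01, 8 members were called higher and 10 lower, together 18 of 88, where 22.4% of all genes tested were called (11% higher and 11.4% lower). The median absolute log2 fold change was 0.09 over the 88 genes and 0.14 over all genes tested, and the median called member differed by 13.8%. A change of at least 1.2-fold with a call was seen in 8 members (9.09%), where 17.98% of all genes tested had one. Such comparisons of size also depend on level, because estimates for genes with few counts vary more. No set of genes matched by level was compared. The median signed log2 fold change was -0.018, beside 0.0029 over all genes. In 14 members all NaCl libraries lay above all controls and in 17 all lay below, together 31 of 88, where 33.4% of all genes tested did not overlap (16.5% above and 16.9% below).

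The classes did not all move one way. Core snRNP genes fell or were not called (0 higher and 5 lower of 12, median log2 fold change -0.11), and kinase genes rose or were not called (4 higher and 0 lower of 8, median 0.10). The hnRNP genes went both ways (4 higher and 6 lower of 23, median -0.017). SR genes were seldom called (1 higher and 1 lower of 14, median -0.016). U2AF and SF3 genes had 1 higher and 2 lower of 13 (median -0.020), PRPF genes 2 higher and 0 lower of 12 (median -0.0041), and the RBFOX, ESRP and MBNL regulators 3 higher and 1 lower of 6 (median 0.13). Over all genes tested, 16.9% were called higher and 17.2% lower. The shares called higher of PRPF (16.7%) and hnRNP genes (17.4%) lay near that, as did the share of U2AF and SF3 genes called lower (15.4%). The classes are small, and the kinase count includes Srpk3, which gave few reads. No test of a difference between classes was run.

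**Figure D1:**
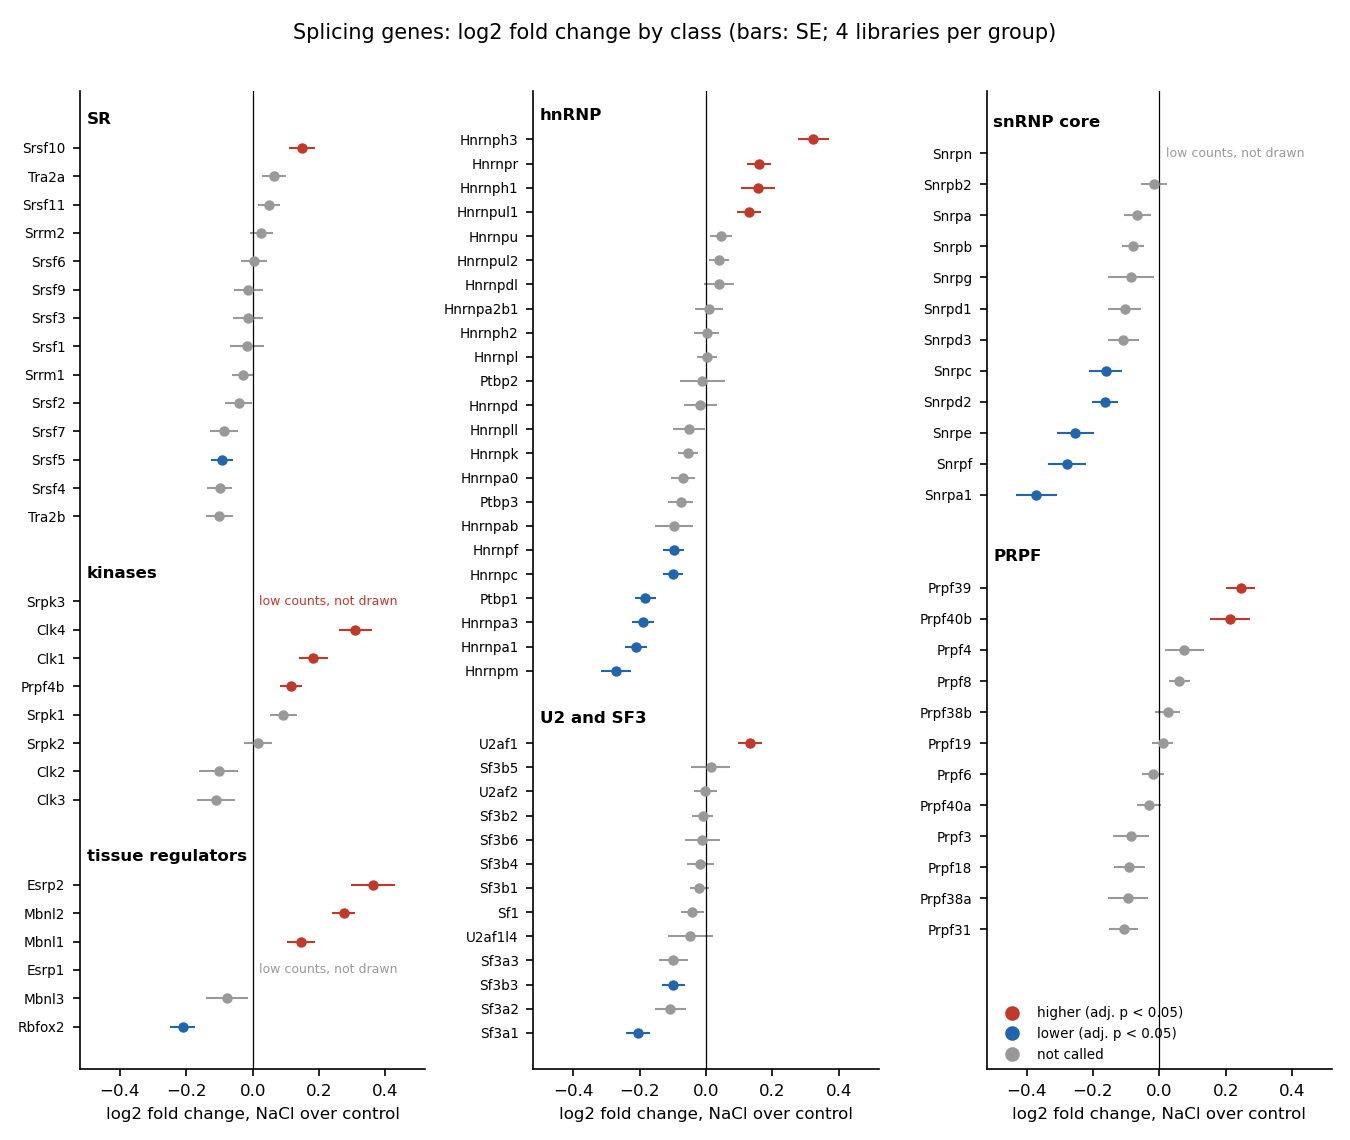
Log2 fold change of each gene (NaCl over control, x axis), by class, with its standard error as a bar; red and blue points were called higher and lower at an adjusted p under 0.05 and grey points were not called. Core snRNP points lie at or left of 0 and the called kinases lie right of it, with every drawn point within 0.4 of 0; the 3 genes of low counts (Srpk3, Snrpn, Esrp1) are named but not drawn.

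To show examples of genes that rose and of genes that fell, the 250 bases before the RefSeq transcription start are shown for a kinase that rose (Clk4), a regulator that rose (Mbnl2), an hnRNP that fell (Hnrnpa1) and a core snRNP gene that fell (Snrpa1). The sequences are from RefSeq on GRCm38.p6, written 5′ to 3′ on the gene's strand, which is the plus strand for all 4. RefSeq and GENCODE starts can differ, and the stretches of Clk4 and Snrpa1 lie inside the wider GENCODE gene spans given further on. Capitals mark the motifs searched on both strands. TGGAAA is the core of the tonicity element bound by NFAT5. The others were the CCAAT box, the TATA box with the letters TATAAA, the ETS core with the letters CCGGAAG, and the GC box with the letters GGGCGG.
Clk4 (chr11:51262864-51263113): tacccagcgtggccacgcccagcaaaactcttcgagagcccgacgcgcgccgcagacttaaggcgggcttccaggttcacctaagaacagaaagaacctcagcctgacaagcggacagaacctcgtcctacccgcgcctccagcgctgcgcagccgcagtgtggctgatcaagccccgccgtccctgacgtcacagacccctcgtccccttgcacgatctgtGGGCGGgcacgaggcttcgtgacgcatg
Mbnl2 (chr14:120275419-120275668): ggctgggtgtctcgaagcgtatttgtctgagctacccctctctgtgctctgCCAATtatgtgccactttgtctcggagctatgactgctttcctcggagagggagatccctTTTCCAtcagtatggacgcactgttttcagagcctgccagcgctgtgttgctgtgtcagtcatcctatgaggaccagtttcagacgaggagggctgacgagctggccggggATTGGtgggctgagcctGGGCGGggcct
Hnrnpa1 (chr15:103240147-103240396): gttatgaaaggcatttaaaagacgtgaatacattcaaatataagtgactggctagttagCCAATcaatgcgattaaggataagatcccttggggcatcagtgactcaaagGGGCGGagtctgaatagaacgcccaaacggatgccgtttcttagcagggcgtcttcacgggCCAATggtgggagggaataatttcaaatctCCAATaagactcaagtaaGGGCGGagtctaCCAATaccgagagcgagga
Snrpa1 (chr7:66060086-66060335): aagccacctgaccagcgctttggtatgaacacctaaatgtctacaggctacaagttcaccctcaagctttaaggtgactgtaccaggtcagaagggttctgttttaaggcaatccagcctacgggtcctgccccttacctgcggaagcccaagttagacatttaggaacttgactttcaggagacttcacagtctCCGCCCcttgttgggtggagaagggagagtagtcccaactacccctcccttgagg
In Hnrnpa1 the capitals are 4 CCAAT and 2 GGGCGG matches, in Clk4 and Snrpa1 1 GC box each, and in Mbnl2 a TGGAAA match on the opposite strand beside CCAAT and GC box matches. Promoter entries were found for 74 of the 88 genes, 99 in all. TGGAAA was in 10.1% of them, against 18.6% of all 32851 promoters and 15.04% of those of tested genes. CCGGAAG was in 23.2%, against 6.91% and 12.97%. CCAAT was in 45.5% (33.8% and 35.2%), GGGCGG in 61.6% (32.7% and 56.8%) and TATAAA in 8.08% (12.4% and 6.63%). Matches of different motifs can overlap, since the reverse of CCAAT ends in letters that begin TGGAAA. A match is a description of the letters only.

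The kinases were examined first. Gene positions here and below span the whole gene in GENCODE M21 on GRCm38. Clk4 (ENSMUSG00000020385, chr11:51261730-51281766, plus strand), a dual-specificity kinase of SR proteins, had 52.1, 54.2, 58.8 and 55.1 CPM in control replicates 1 to 4 and 69.9, 73.2, 64.4 and 65.3 CPM in NaCl replicates 5 to 8. All NaCl libraries lay above all controls. The log2 fold change was 0.31 (SE 0.051; edgeR adjusted p = 0.000166), a rise of 23.9%. Clk1 (ENSMUSG00000026034, chr1:58410189-58424066, minus strand), of the same family, had 113, 133, 124 and 125 CPM in control and 143, 142, 143 and 136 CPM in NaCl libraries, again without overlap. Its log2 fold change was 0.18 (SE 0.044; adjusted p = 0.00363). Neither shared sequence with another annotated gene at 98% identity.

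The other CLK genes were not called. Clk2 had 39.6 ± 2.33 CPM in control and 36.9 ± 2.48 CPM with NaCl (SD, n = 4 each; log2 fold change -0.10, edgeR adjusted p = 0.198). Clk3 had 69.6 ± 4.45 and 64.4 ± 5.01 CPM (log2 fold change -0.11, adjusted p = 0.158). In both, control and NaCl libraries overlapped. Within each library, the log2 ratio of Clk4 to Clk2 counts was 0.36 to 0.68 in control and 0.80 to 1.03 with NaCl, and that of Clk1 to Clk3 was 0.76 to 0.99 and 1.06 to 1.32. Neither pair of ranges overlapped. These pairs, like the other ratios given here, were chosen after their values were seen, so no test is attached to them.

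Srpk1 and Srpk2, kinases that act on SR proteins mainly in the cytoplasm, were not called. Srpk1 had 92.4 ± 3.004 CPM in control and 98.6 ± 4.59 CPM with NaCl (SD, n = 4 each; edgeR adjusted p = 0.0938), and Srpk2 69.2 ± 2.15 and 70.02 ± 2.46 CPM (adjusted p = 0.793). Srpk3, known from muscle, gave few reads. Its control libraries counted 41, 12, 18 and 38 of them, and its NaCl libraries 38, 49, 72 and 47. Its CPM rose from 0.619 ± 0.306 to 1.27 ± 0.319 (log2 fold change 1.03, SE 0.34; adjusted p = 0.0284). That call ended when control replicate 2 (adjusted p = 0.0872), control replicate 3 (0.0799) or NaCl replicate 7 (0.111) was left out. Prpf4b, a kinase of the tri-snRNP, rose from 136 ± 2.27 to 147.7 ± 3.69 CPM (log2 fold change 0.12, SE 0.033; adjusted p = 0.0117), with no overlap. Summed over the 8 kinases, control libraries held 570 to 598 CPM and NaCl libraries 610.0 to 646 CPM.

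**Figure D2:**
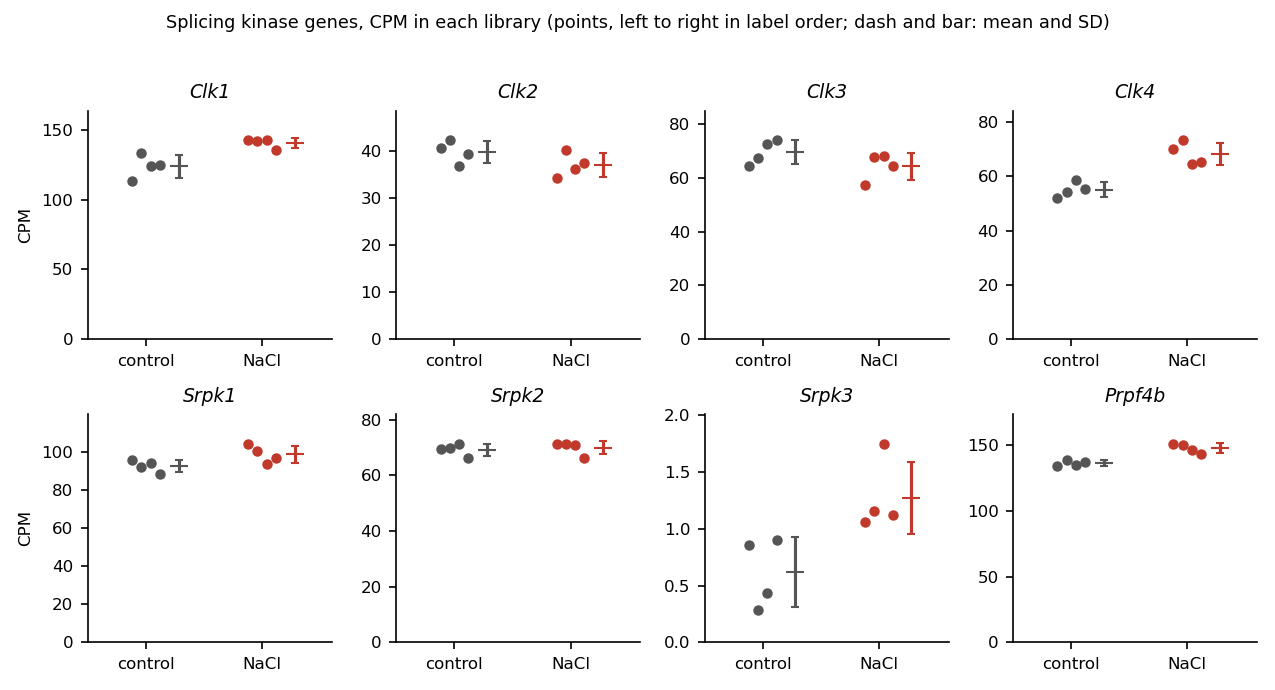
CPM of the 8 kinase genes in each library (points; y axes start at 0), with the mean and SD of the 4 libraries beside them. Clk1, Clk4, Srpk3 and Prpf4b have all NaCl points above all control points, and Clk2, Clk3, Srpk1 and Srpk2 overlap.

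Among the hnRNPs, the genes that fell included some of the most abundant. Hnrnpm (ENSMUSG00000059208, chr17:33646233-33686860, minus strand), whose protein acts on alternative exons, had 480.3, 442, 428 and 417 CPM in control replicates 1 to 4 and 382, 378, 360.1 and 344 CPM in NaCl replicates 5 to 8. The groups did not overlap, and the log2 fold change was -0.27 (SE 0.045; edgeR adjusted p = 0.000224). Of its transcript, 29.7% was shared with March2, which overlaps it on the same strand. Hnrnpa1 (ENSMUSG00000046434, chr15:103240432-103246692, plus strand), the shuttling hnRNP named above, had 1069, 1077, 1005 and 997 CPM in control and 903, 903, 885 and 894 CPM in NaCl libraries. All NaCl values lay below all controls (log2 fold change -0.21, SE 0.034; adjusted p = 0.000138). Hnrnpa3, its close relative, fell from 824 ± 31.2 to 722.5 ± 11.2 CPM (SD, n = 4 each; log2 fold change -0.19, adjusted p = 0.000347). Counts of both are uncertain, because 50.3% of the Hnrnpa1 and 92.3% of the Hnrnpa3 transcript is shared with other genes, mostly predicted genes.

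Hnrnpa2b1, the member with the highest level per kb of transcript, was not called. It had 1176 ± 72.96 CPM in control and 1184 ± 40.6 CPM with NaCl (SD, n = 4 each; log2 fold change 0.010, edgeR adjusted p = 0.881). Within libraries, the log2 ratio of Hnrnpa2b1 to Hnrnpa1 counts was 0.15 to 0.22 in control and 0.34 to 0.45 with NaCl. The ratio of Hnrnpa3 to Hnrnpa1 overlapped between the groups, at -0.34 to -0.31 and -0.33 to -0.28.

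Ptbp1 (ENSMUSG00000006498, chr10:79854427-79864771, plus strand), the polypyrimidine tract binding protein gene that represses many exons, had 532, 513, 519 and 510.1 CPM in control and 450.3, 475, 456 and 446 CPM in NaCl libraries. It fell without overlap (log2 fold change -0.18, SE 0.032; edgeR adjusted p = 0.000314). Antisense and neighbouring genes shared 28.5% of its transcript. Ptbp2, the paralog known from neurons, had 39.1 ± 2.07 and 38.8 ± 4.17 CPM (adjusted p = 0.924). The log2 ratio of Ptbp1 to Ptbp3 counts overlapped between the groups.

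On the other side, Hnrnph3 (ENSMUSG00000020069, chr10:63014664-63024217, minus strand), of the G-run binding H/F family, had 75.6, 69.8, 64.8 and 67.7 CPM in control and 89.8, 83.5, 87.5 and 87.2 CPM in NaCl libraries. It rose without overlap (log2 fold change 0.32, SE 0.047; edgeR adjusted p = 4.80e-05). The remaining called hnRNP genes lie outside the rule for naming genes and are given because they complete the count. Hnrnpr (0.16), Hnrnph1 (0.16) and Hnrnpul1 (0.13) rose, and Hnrnpc (-0.098) and Hnrnpf (-0.098) fell, by the log2 fold changes in parentheses. Among them only the groups of Hnrnph1 overlapped, with controls up to 430 CPM and NaCl libraries from 422 CPM (edgeR adjusted p = 0.0284). Of the Hnrnpf transcript, 74.4% is shared with 9 genes. Within the H/F family, then, 2 genes were called higher, Hnrnpf was called lower and Hnrnph2 was not called. Summed over the 23 hnRNP and PTBP genes, control libraries held 9658 to 10469 CPM and NaCl libraries 9417 to 9858 CPM, which overlap.

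Core snRNP genes encode the Sm ring proteins shared by most snRNPs and the proteins particular to U1 and U2 snRNPs. Snrpa1 (ENSMUSG00000030512, chr7:66059003-66074587, plus strand), a U2 snRNP protein gene, had 58.9, 54.7, 47.7 and 53.1 CPM in control and 43.2, 41.01, 43.2 and 38.6 CPM in NaCl libraries. All NaCl values lay below all controls, and the log2 fold change was -0.37 (SE 0.061; edgeR adjusted p = 0.000174), so that it fell by 22.6%. Its binding partner gene Snrpb2 was not called (log2 fold change -0.017, adjusted p = 0.787). The log2 ratio of Snrpa1 to Snrpb2 counts was -0.30 to 0.015 in control and -0.53 to -0.43 with NaCl, without overlap.

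Of the Sm ring genes, Snrpe fell from 34.3 ± 2.01 to 28.8 ± 1.01 CPM (SD, n = 4 each; log2 fold change -0.25, SE 0.056; edgeR adjusted p = 0.0022). Snrpd2 fell from 70.8 ± 0.817 to 63.2 ± 2.33 CPM (log2 fold change -0.16, SE 0.040; adjusted p = 0.00409). Snrpf fell from 43.2 ± 2.70 to 35.6 ± 2.20 CPM (log2 fold change -0.28, SE 0.058; adjusted p = 0.00134). For each of these 3 the groups did not overlap. Counts of Snrpe are uncertain, because 55.5% of its transcript is shared with Snrpert. All of the Snrpf transcript (100%) is shared with 3 genes. Annotated genes on the opposite strand cover 85.4% of its exons, and the strandedness of the counting is not given in the sources used here, so reads of the strands cannot be told apart. Snrpb, the most abundant per kb, had 223 ± 4.20 and 211 ± 6.53 CPM and was not called (adjusted p = 0.0756). Snrpd1, Snrpd3 and Snrpg were not called either.

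The U1 snRNP gene Snrpc, named here after its values were seen, fell (log2 fold change -0.16, edgeR adjusted p = 0.0175), with 60.2% of its transcript shared with 48 genes, and Snrpa, also of U1, was not called (-0.066, adjusted p = 0.217). In all, 11 of the 12 log2 fold changes were below 0. The exception, Snrpn, had 39 to 86 counts per library and was not called. Summed over the 12 genes, control libraries held 802 to 858 CPM and NaCl libraries 737 to 775 CPM, without overlap.

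SR protein genes showed small differences. Srsf10, a splicing repressor when dephosphorylated, had 215, 217, 200.5 and 191 CPM in control and 231, 227, 229 and 224 CPM in NaCl libraries. It rose without overlap (log2 fold change 0.15, SE 0.040; edgeR adjusted p = 0.00841). Srsf5, the SR gene with the highest level per kb, was called lower (321 ± 10.4 to 301 ± 7.03 CPM, log2 fold change -0.092, SE 0.034; adjusted p = 0.0435), but the groups overlapped. The Srsf5 call ended with library totals alone as scaling (0.0847) and without control replicate 2, 3 or 4 or NaCl replicate 5, 7 or 8 (0.059 to 0.110). Another gene shares 51.7% of its transcript. The classical factors Srsf1, Srsf2 and Srsf3 had log2 fold changes of -0.018, -0.042 and -0.014, and the SR-related scaffolds Srrm1 and Srrm2 of -0.029 and 0.026, none of them called. Summed over the 14 SR genes, control libraries held 3059 to 3282 CPM and NaCl libraries 3060 to 3257 CPM.

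U2AF binds the end of the intron and SF3 complexes hold the U2 snRNP at the branch point. U2af1, the small U2AF subunit gene, rose from 119 ± 3.59 to 130.3 ± 4.41 CPM (SD, n = 4 each; log2 fold change 0.13, SE 0.037; edgeR adjusted p = 0.0104), but 68.8% of its transcript is shared with Gm10232. The large subunit gene U2af2 was not called (-0.0017, adjusted p = 0.977). Sf3a1 had 128, 119, 118 and 121 CPM in control and 108, 105, 106 and 103 CPM in NaCl libraries. It fell without overlap (log2 fold change -0.20, SE 0.036; adjusted p = 0.000357). Sf3b3 fell from 299 ± 10.7 to 279 ± 6.87 CPM (log2 fold change -0.099, adjusted p = 0.0356). That call ended with library totals alone (0.0663) and without control replicate 1 or 3 or NaCl replicate 6 or 7 (0.0591 to 0.115). Sf3b2, the most abundant of the class per kb, had 389 ± 8.28 and 386 ± 5.12 CPM (adjusted p = 0.833).

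Of the PRPF genes, those of U1-associated factors rose. Prpf39 had 53.3, 55.3, 56.8 and 55.7 CPM in control and 67.96, 67.9, 62.8 and 63.5 CPM in NaCl libraries (log2 fold change 0.25, SE 0.043; edgeR adjusted p = 0.000329). Prpf40b rose from 35.9 ± 1.14 to 41.6 ± 3.72 CPM (log2 fold change 0.21, SE 0.060; adjusted p = 0.0111). Neither gene's groups overlapped. The other 10 were not called, among them Prpf8, the central scaffold of the spliceosome (0.060, adjusted p = 0.150), and Prpf19, whose ubiquitin ligase helps to activate it (211 ± 1.62 and 213 ± 6.22 CPM, adjusted p = 0.838).

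With the group as the only term, the regulators held the highest share of called genes, 4 in a class of 6 (34.1% over all genes tested). With the library number as a linear term, described below, 2 of the 6 were called. The hnRNP class then held a higher share (9 higher and 1 lower of 23). Esrp2 (ENSMUSG00000084128, chr8:106130319-106136974, minus strand), an epithelial splicing regulator, had 33.8, 31.7, 38.3 and 38.2 CPM in control and 46.4, 41.6, 45.8 and 48.8 CPM in NaCl libraries. It rose without overlap (log2 fold change 0.36, SE 0.066; edgeR adjusted p = 0.000473). Its paralog Esrp1 was near the limit of detection, with 5 to 13 counts in control and 3 to 15 in NaCl libraries, and no difference was detectable at this depth. Mbnl2 (ENSMUSG00000022139, chr14:120275669-120431697, plus strand), of the muscleblind family, had 252, 251, 268 and 262 CPM in control and 307, 304, 321 and 316 CPM in NaCl libraries. It rose by 0.27 on the log2 scale (SE 0.034; adjusted p = 9.51e-06), the lowest adjusted p of the 88. Mbnl1 rose from 93.8 ± 4.21 to 104 ± 4.03 CPM (log2 fold change 0.15, adjusted p = 0.0116) with overlapping groups. Its call ended without NaCl replicate 7 (0.0529). Rbfox2, which binds GCATG motifs beside exons, had 189.7, 181, 180.3 and 168 CPM in control and 153, 160.2, 154 and 154 CPM in NaCl libraries. It fell without overlap (log2 fold change -0.21, SE 0.038; adjusted p = 0.000403).

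**Figure D3:**
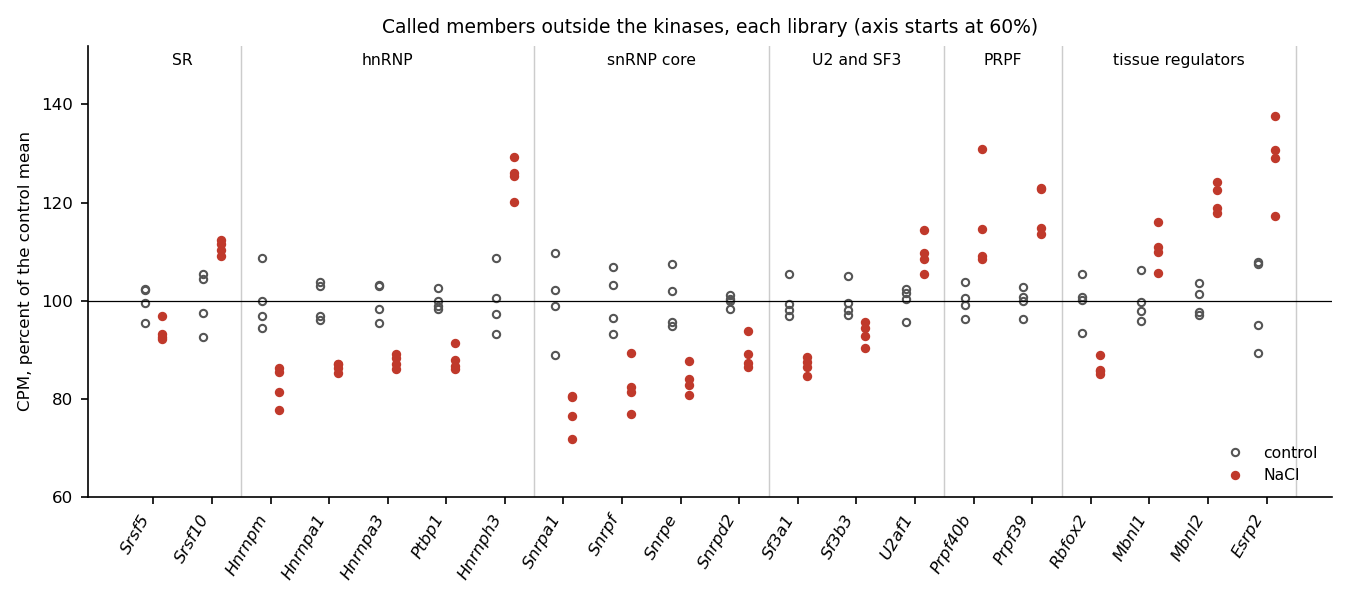
Level of each called gene named by the rule, outside the kinases, in every library as a percentage of the control mean (open grey points control, red points NaCl; the y axis starts at 60%). Most red groups sit clear of the grey points, from Snrpa1 and Hnrnpm below to Hnrnph3 and Esrp2 above, and Srsf5 and Mbnl1 overlap.

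Levels between genes were compared per kb of transcript. The medians were 107 CPM per kb for the hnRNP class, 64.9 for SR genes, 60.4 for U2AF and SF3 genes, 46.5 for core snRNP genes, 23.1 for PRPF genes, 19.3 for kinases and 14.5 for the regulators. Hnrnpa2b1 led with 710.0 CPM per kb, followed by Hnrnpa1 with 504. Among kinases, Clk1 led with 69.0 CPM per kb in control and 78.4 with NaCl, and Clk4 had 28.2 and 35.004. Srpk3 (0.477) and Esrp1 (0.059) were lowest over both groups.

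**Figure D4:**
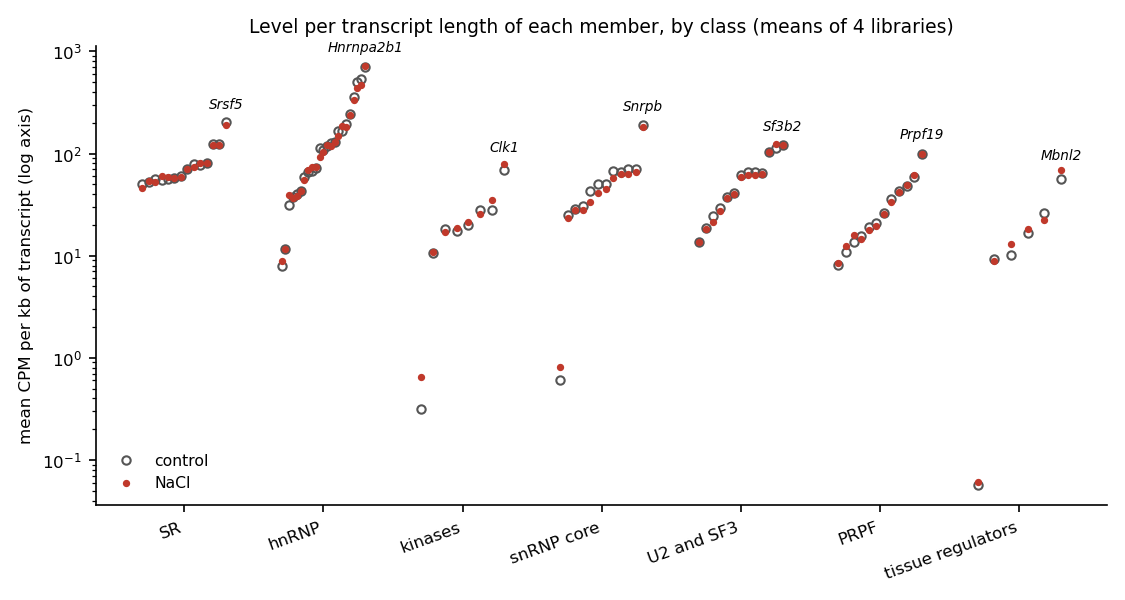
Mean CPM per kb of transcript (log axis) of every gene in control (open points) and NaCl libraries (red points, means of 4 libraries each), ordered within class. The hnRNP class reaches highest, to Hnrnpa2b1 at 710.0, and NaCl and control points nearly coincide for most genes.

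Libraries differed along their number in the labels, whose meaning the labels do not give, and the splicing genes took part in this. Since controls are numbered 1 to 4 and NaCl libraries 5 to 8, an order that ran through all 8 libraries and the treatment cannot be told apart. With the number centred within each group as a second term in edgeR, 17 of 88 members (19.3%) had a level that was lower at higher numbers (adjusted p under 0.05), and 1, Clk3, the reverse. Over all genes tested these shares were 6.22% and 6.95%, together 13.2%. In that fit 43 of 88 members were called for NaCl, 16 of them higher and 27 lower, where 43% of all genes tested were called (21% higher and 22% lower). By class, 8 of 23 hnRNP and 6 of 14 SR genes were among the 17, with 2 PRPF genes and 1 core snRNP gene. Hnrnpab, chosen here after its values were seen, had 944, 868, 803 and 780 CPM in control replicates 1 to 4 and 829, 822, 791 and 736 CPM in NaCl replicates 5 to 8. Its slope was -0.076 log2 units per library (adjusted p = 1.88e-05). Srsf1 had 335, 325, 303 and 286 CPM and 317, 320.2, 314 and 282 CPM, a slope of -0.066 (adjusted p = 0.000415).

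With the number from 1 to 8 as a linear term across both groups, 20 members were called higher and 2 lower. Together these are 22 of 88, where 24.1% of all genes were called (11.5% higher and 12.6% lower). This fit is the same model as the centred one, with the slope within groups extended across them. Its shifts in fold change therefore follow from the slopes above and are no separate result. Group and number are correlated, so the group difference is also estimated less precisely with the linear term. None of the 15 members called lower without that term was called with it, although all 15 log2 fold changes were still below 0. Of the 15 called higher, 9 were also called higher with it: Clk4, Hnrnph1, Hnrnph3, Hnrnpr, Srsf10, U2af1, Prpf39, Mbnl1 and Mbnl2. Adjusted p-values with the term were 0.00649 for Clk4, 4.14e-05 for Hnrnph3, 0.000339 for Srsf10 and 0.0140 for Mbnl2. Among genes whose call was lost, some kept a log2 fold change of about the same size. That of Clk1 was 0.18 without the term and 0.16 with it (adjusted p = 0.134), that of Snrpe -0.25 and -0.23 (0.135), and that of Srsf5 -0.092 and -0.105 (0.203). Others came closer to 0 with the term. Hnrnpm went from -0.27 to -0.034 (adjusted p = 0.705), Esrp2 from 0.36 to 0.13 (0.395) and Snrpa1 from -0.37 to -0.16 (0.272). Rbfox2 went from -0.21 to -0.098 (adjusted p = 0.293) and Hnrnpa1 from -0.21 to -0.11 (0.110). A further 13 members were called with the term alone, among them Srsf1 (log2 fold change 0.25, adjusted p = 0.00155) and Hnrnpa2b1 (0.22, adjusted p = 0.00179) as higher and Clk3 (-0.35, adjusted p = 0.00272) as lower. The class medians with the term were 0.14 for SR, 0.13 for hnRNP, 0.16 for kinase and -0.011 for core snRNP genes, beside 0.011 over all genes tested.

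**Figure D5:**
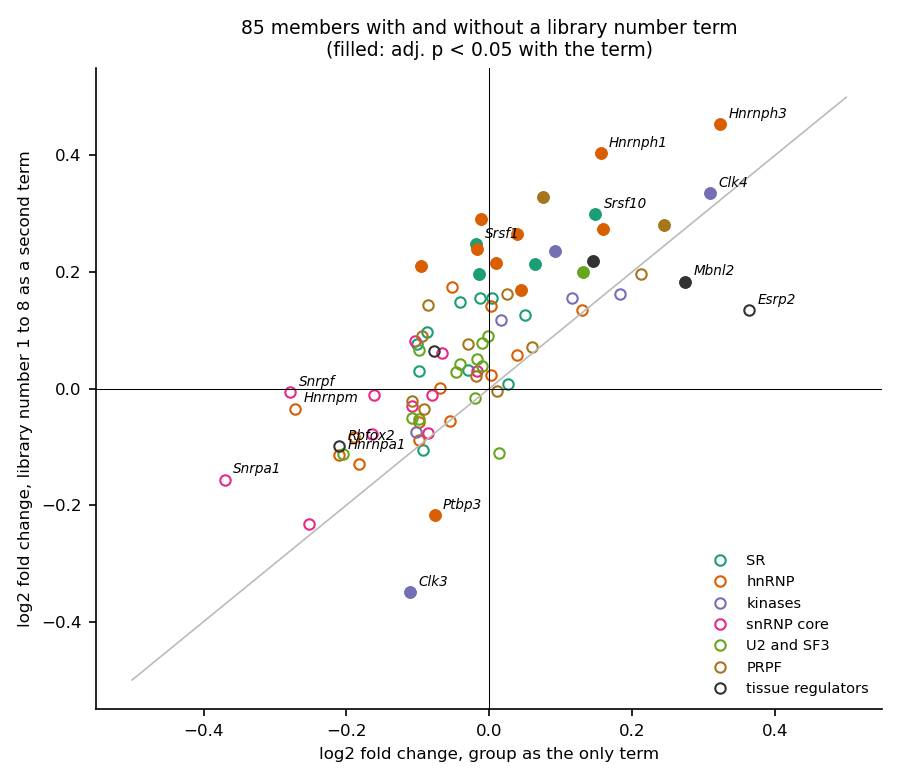
Log2 fold change of 85 genes (the 3 of low counts are left out) without (x axis) and with (y axis) the library number as a linear term; colours give the class, filled points have an adjusted p under 0.05 with the term, and the grey line marks equal values. Most points lie above the line; Clk4 and Hnrnph3 stay filled at the upper right, whereas Snrpa1, Hnrnpm and Rbfox2 are open and closer to 0.

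Other genes of the pathway were read from lists, beside a background of 16.9% of all genes called higher and 17.2% lower. Of 46 further snRNP and spliceosome genes, 1 rose (Snrnp200, the helicase that unwinds U4 from U6, log2 fold change 0.15) and 6 fell, with Lsm7 (-0.30) and Zrsr2 (-0.24) the lowest. Their median was -0.044. The 7 calls became 12 without control replicate 4 and 5 without control replicate 2. Of 44 further splicing regulators, 8 rose and 5 fell. Rbm3, known as a cold-inducible RNA-binding protein gene, fell from 377 ± 19.6 to 250.5 ± 11.7 CPM (SD, n = 4 each; log2 fold change -0.59, SE 0.042), more than any of the 88 genes fell. Celf2 (0.29), Rbpms (0.25) and Msi2 (0.21) rose, and Fubp1 (-0.30) and Rnps1 (-0.27) fell.

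Of 17 genes of nonsense-mediated decay and the exon junction, 3 rose (Smg5, Smg9 and Upf1) and 2 fell (Rbm8a and Gspt1). The 5 calls became 3 without control replicate 2 or NaCl replicate 6. Over all genes tested, 34.1% were called (16.9% higher and 17.2% lower). Of 20 carriers and enzymes that act on SR proteins and hnRNPs, 2 rose and 6 fell. Dyrk1b, of the DYRK kinases, relatives of the CLK family, rose from 22.7 ± 2.44 to 33.1 ± 1.53 CPM (SD, n = 4 each; log2 fold change 0.54, SE 0.071), and Dyrk1a rose by 0.16 on the log2 scale. Dyrk2 of the same family fell (log2 fold change -0.25, edgeR adjusted p = 0.00766), and Dyrk3 was not called (-0.086, adjusted p = 0.523). Prmt5, which methylates Sm proteins before snRNP assembly, fell from 109.9 ± 3.36 to 90.4 ± 1.47 CPM (log2 fold change -0.28, SE 0.036; edgeR adjusted p = 1.30e-05). Tnpo3, the importin of SR proteins, and Tnpo1, the importin of hnRNP A1, were not called (-0.0089 and 0.045), whereas Tnpo2, a further transportin gene, fell (-0.13, edgeR adjusted p = 0.00582). Mknk2, a kinase known to phosphorylate hnRNP A1, fell (-0.19, adjusted p = 0.000774), and Mapk14, which encodes p38 alpha, was not called (0.098, adjusted p = 0.0555). Map2k6, a kinase that activates p38, fell (-0.39, adjusted p = 0.00286). Their relatives in the list, Mknk1 (0.047, adjusted p = 0.483) and the p38 activator Map2k3 (0.081, adjusted p = 0.256), were not called.

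The members share features of annotation that the rule did not use. A transcript marked for nonsense-mediated decay is annotated for 48 of 88 (54.5%), against 28.1% of tested protein-coding genes. It was 13 of 14 for SR genes, 7 of 8 for kinases, 4 of 12 for core snRNP genes and 0 of 6 for the regulators. A retained-intron transcript is annotated for 70 of 88 (79.5%), against 58.3%. The members also have more annotated transcripts, with a median of 8 against 5, and gene counts cannot divide reads among them.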

How the data were processed

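Bulk RNA sequencing of 8 libraries (4 control, 4 NaCl, 12 h) was analysed. The authors deposited raw counts for each gene under its Ensembl identifier, with 35.29 to 47.57 M counts per library and no gene under 19 counts in total. They also deposited a table of normalized signal, the raw count divided by 1 factor per library. Trim Galore 0.6.7, STAR, DESeq2 1.34.0 and the mm10 build are named, without a role, per the submitters' processing notes. The counting program, its strandedness and the gene filter are not given in the sources used here.

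From the counts, edgeR 4.0.16 in R 4.3.3 tested all genes that passed filterByExpr at a minimum count of 10 (14024 of 15288), with TMM scaling, robust quasi-likelihood dispersions, the group as the single term and Benjamini-Hochberg adjustment over all genes tested. The median-of-ratios method, library totals, upper-quartile factors, other filters, DESeq2 1.42.0, limma 3.58.1, a threshold of 0.01, the library number as a term and leaving out each library were alternatives. Positions, lengths and transcripts came from GENCODE M21 (GRCm38), and shared sequence from blastn 2.17.0 on its transcripts (at least 75 bases at 98% identity, either strand). Levels per kb use the longest principal coding transcript. On simulated counts the test recovered 54.4% of 68 genes changed 1.25-fold and 77.4% of 62 changed 1.5-fold, among 13892 genes tested. Of its 161 calls, 7.45% were false. The simulation changed only a small share of genes and held no slope with library number. In the data 34.1% of genes tested were called and 13.2% had such a slope, so the simulated rates need not hold for them.

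The members and the lists were chosen with earlier results of these data known. Genes named by the rule were all kinases and the most abundant gene per kb of each class. In each class outside the kinases, the 4 called genes with the largest change and mean log2 CPM not under 3 were added. So was a set of regulators: Rbfox2, Esrp1, Esrp2, Ptbp1, Ptbp2, Mbnl1 and Hnrnpa1. Members named in the text outside this rule include Srsf1, Srsf2, Srsf3, Srsf4, Srrm1, Srrm2, Tra2a, Tra2b, U2af2, Prpf8, Snrpb2, Snrpa and Hnrnph2.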

Additional observations from a re-analysis of the deposited data

Results flagged for a closer look

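In 84 groups of 4 values (totals, class sums and named genes), the highest or lowest library lay far from the remaining 3 in 6, where chance gives about 1 in 20, or 4.2. Total counts stood apart in control replicate 1 (47.57 M, the others 41.77 to 42.73 M) and in NaCl replicate 5 (35.29 M, the others 41.37 to 42.39 M). Sf3b2 had 401 CPM in control replicate 1, where the other controls had 384 to 387 CPM. In NaCl replicate 8, Srpk2 had 66.3 CPM against 71.1 to 71.4 CPM, and Clk1 had 136 CPM against 142 to 143 CPM. For Srpk3, NaCl replicate 7 reached 1.75 CPM, above the 1.06 to 1.16 CPM of the other NaCl libraries.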

How the results depend on the processing

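No paired analysis was possible because the groups share no library number. Of 456 refits of the 24 called genes named by the rule, none turned the direction, 416 were also past the threshold and 40 were not, 17 of them under the linear library number term. Over the other scalings, filters and tests, 27 to 32 members were called (30 in the report), and 25 to 33 without 1 library. A threshold of 0.01 called 18 members, 8 of them higher (22.4% of all genes tested were called, 11% higher), with 1 SR, 6 hnRNP, 2 kinase, 1 U2AF or SF3 and 1 PRPF gene. With the library number centred within groups, 27 members were called lower (22% of all genes were), and 5 SR, 8 core snRNP and 5 U2AF or SF3 genes were called. With the linear term, 2 members were called lower (12.6% of all genes were), and 4 SR, 0 core snRNP, 1 U2AF or SF3 and 2 regulator genes were called. Class medians with that term were 0.14 (SR), 0.13 (hnRNP), 0.16 (kinases), -0.011 (core snRNP), 0.040 (U2AF and SF3), 0.083 (PRPF) and 0.099 (regulators). With library totals alone, 1 SR gene was called. With limma on the normalized values plus 1, the regulators' median was 0.094. Leaving out each library gave 1 to 4 called SR genes, 2 to 4 PRPF genes, SR medians from -0.042 to 0.012, PRPF medians from -0.019 to 0.0094, hnRNP medians from -0.057 to -0.000562 and regulator medians from 0.050 to 0.21. With the linear term 31 of 88 members turned direction, none of them called in the report and 5 called with the term (Srsf1, Srsf3, Hnrnpab, Hnrnpd and Ptbp2). Among the genes named by the rule these were Prpf19 (-0.0039), Sf3b2 (0.040), Ptbp2 (0.29, adjusted p = 0.0331) and Esrp1 (-1.88), and with library totals the named genes that turned were Sf3b2 (0.00045) and Ptbp2 (0.00043). Leaving out each library gave -0.011 to 0.021 for Prpf19, -0.019 to 0.0031 for Sf3b2, -0.072 to 0.032 for Ptbp2, -0.021 to 0.037 for Hnrnpa2b1, -0.0061 to 0.040 for Srpk2 and -0.15 to 0.38 for Esrp1. The turns under the linear term follow from the slopes within groups, since both number terms give the same model. What lies behind the slopes and the other changes was not tested. Depth limits Srpk3, Snrpn and Esrp1.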

Other observations

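Within-library count ratios, which no scaling of the libraries changes, separated the groups for several further pairs, all chosen after their values were seen and given without a test. Shared sequence makes some of these counts uncertain: 68.0% of the Srsf4 transcript is shared with Gm12992 and 25.5% of the Tra2b transcript with Gm10254. The log2 ratio of Srsf10 to Srsf4 was 0.83 to 0.91 in control and 1.09 to 1.14 in NaCl libraries. That of Tra2a to Tra2b, paralogs that bind the same kind of enhancer, was -0.53 to -0.44 in control and -0.34 to -0.28 with NaCl, although neither gene was called. For Hnrnpr over Hnrnpm the values were -1.46 to -1.30 and -0.98 to -0.87, and for Mbnl2 over Rbfox2 they were 0.41 to 0.64 and 0.93 to 1.05. The ratio of U2af1 to U2af2, the subunits of U2AF, was -0.91 to -0.82 in control and -0.81 to -0.66 with NaCl. For Srpk1 over Srpk2 the groups overlapped, at 0.40 to 0.45 and 0.39 to 0.54.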
